A study of Drosophila melanogaster with 12 samples.

Results

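The gene-trap insertion line BG02257 of Drosophila melanogaster was compared with Canton S B in head RNA of adult flies. The 8 arrays of these lines, out of 12 in the series, were chosen by the line named in their labels. There were 2 arrays of BG02257 females, 2 of BG02257 males, 2 of Canton S B females and 2 of Canton S B males. The other 4 arrays hold a second insertion line, BG02514, 2 of each sex.

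Each sample was pooled from the heads of 100 flies aged 5 to 7 days, reared at 25 °C and 70% humidity with 12 h of light. BG02257 and BG02514 are stocks of a gene-trap collection, in which a P{GT1} transposon marked with a mini-white eye colour gene is inserted in the genome. Canton S B is named after the Canton S strain, and no insertion is named for it in the labels. Its eye colour genotype was not tested. The insertion site of BG02257 is not known from the sources used here, and differences in genetic background apart from the insertion were not tested. The line is a single insertion stock, so a difference between it and Canton S B is a difference between stocks. In RNA of whole heads, fewer cells of a type and less RNA per cell cannot be told apart.

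A P element gene trap carries splice signals that can join the exons of the gene it enters to a reporter, and so can lower or truncate that gene's transcript. The head of the fly is rich in photoreceptors, which detect light through rhodopsin, a G protein and the phospholipase NorpA. The screening pigments of the eye are the drosopterins and ommochromes. The head also holds brain, the olfactory and taste organs of the antennae and mouthparts, muscle and a layer of fat body. The series is titled for the region of Gr5a, which encodes a sugar taste receptor, and Tre1, whose receptor guides germ cells. The comparison asks which head transcripts differ between the insertion line and Canton S B, and whether they do so in both sexes.

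Expression was measured as Signal, the summary intensity of a set of short oligonucleotide probes (a probe set), on a linear scale. The median Signal was 183 to 206 over the 8 arrays. Replicate arrays correlated at Spearman's rho of 0.945 in BG02257 females and 0.910 in BG02257 males, against 0.924 in Canton S B females and 0.918 in Canton S B males, over the tested probe sets (probe sets are not replicates). The median rho of an array with those of other groups was 0.910 to 0.931. BG02257 females alone had a replicate rho above this median for each of their arrays. The ratio of Signal at the end to that at the start of the GAPDH control transcript, a check of RNA quality, was 4.14 to 4.98 in BG02257. In Canton S B this ratio was 3.7 to 6.16. The eye was well represented, since Arr2, the major visual arrestin, had a Signal of 52602 to 60842 in BG02257 and of 55142 to 71105 in Canton S B. Both BG02257 male arrays carry the replicate number 1 and are called male 1a and male 1b here. They may be repeat arrays of a single sample.

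BG02257 male 1a stood apart from the other male arrays. Yp1, a yolk protein made in the female fat body, had a Signal of 6746 on this array, against 172 to 496 on the other 5 male arrays of the series. The female arrays had a Yp1 Signal of 77339 to 102712. Yp2 and Yp3 gave the same picture, with 3187 and 4402 on male 1a, against at most 437 and 1684 on the other male arrays. Of 8 genes named for the sex-responsive head fat body and yolk, 7 had a log2 difference above 0 between the lines, with a median of 0.31, and of -0.13 without male 1a. Each called difference is therefore given below also without this array.

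Over both sexes, 8 of 8380 tested probe sets, for 7 genes, differed between BG02257 and Canton S B at an adjusted p under 0.05 (limma, a linear model with the spread shared between probe sets, Benjamini-Hochberg adjustment over all tested probe sets). Such a difference is described as called below. The share called was 0.0955%. Chaoptin (chp) was the gene that rose in BG02257, and the 7 other probe sets fell. They report on CG11899 of serine synthesis, the sterol-binding protein gene Npc2g, the eye pigment gene se, the mitochondrial enzyme gene ScsbetaG, the protease gene teq, and stops, a gene of phototransduction, with 2 probe sets. For each of the 8 probe sets, all 4 BG02257 arrays lay on one side of all 4 Canton S B arrays. An unadjusted p under 0.05 was found for 336 probe sets, a smaller share of the 8380 than the 0.05 that arises on average with no line difference.

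**Figure D1:**
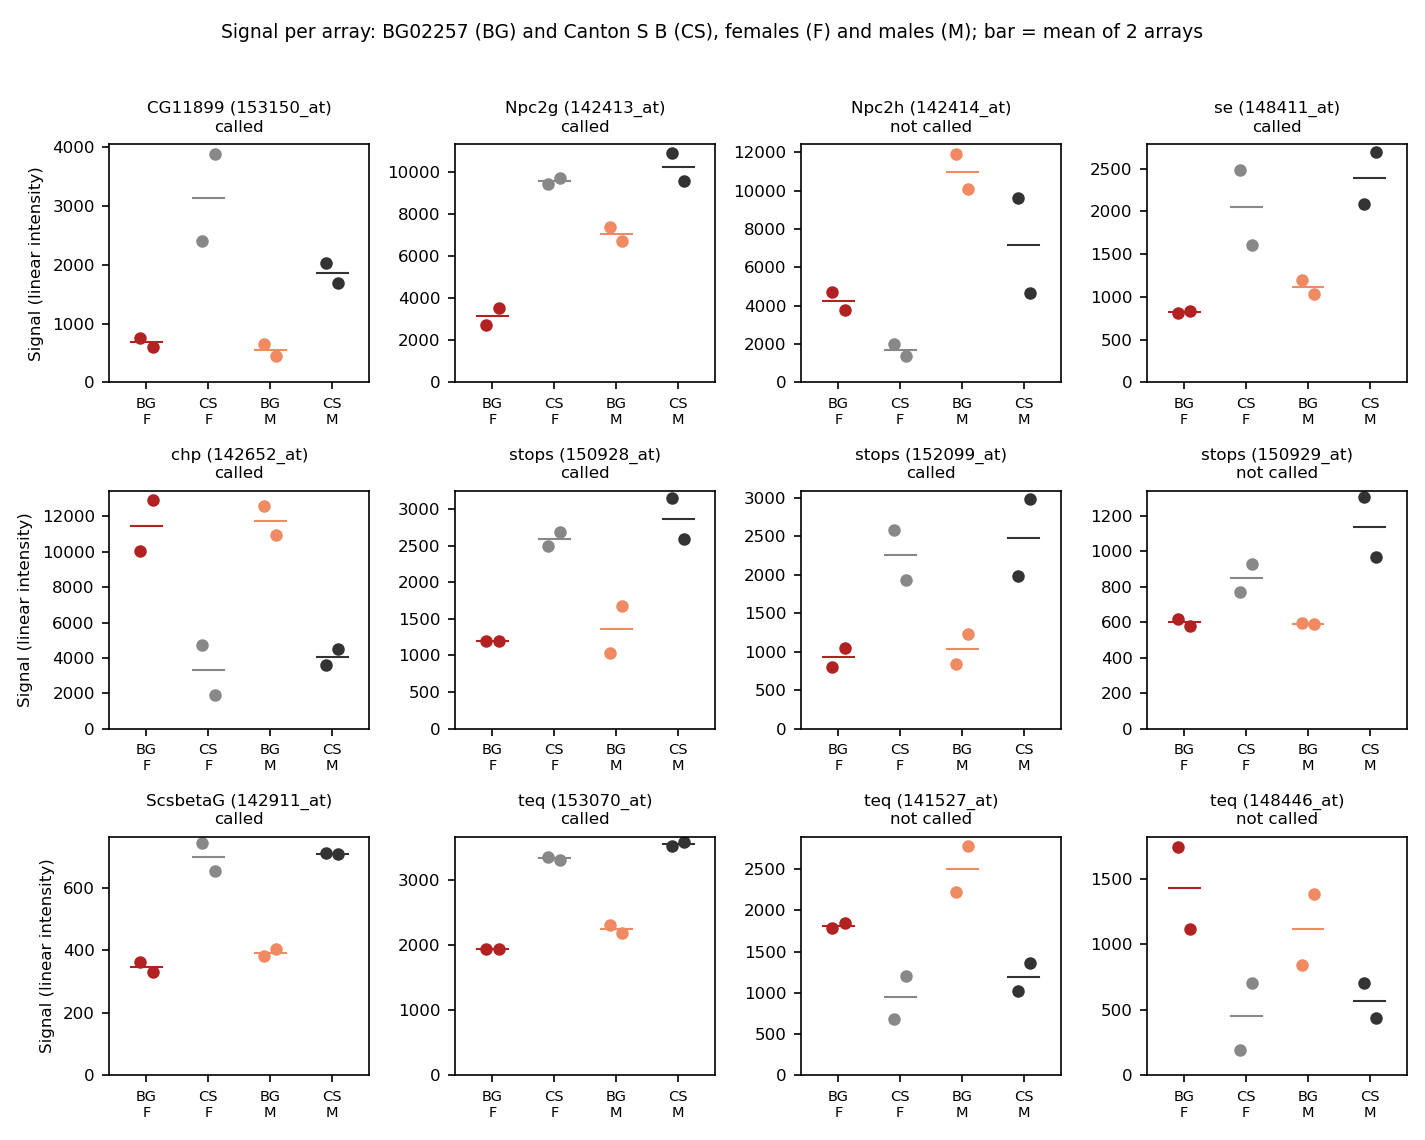
Signal (linear intensity, from 0) of 12 probe sets on each of the 8 arrays, by line and sex, with a bar at the mean of the 2 arrays of a group. The BG02257 points lie below the Canton S B points for CG11899, Npc2g, se, stops, ScsbetaG and the called probe set of teq, and above them for chp and the other 2 probe sets of teq.

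CG11899, on chromosome arm 3R, encodes a homolog of phosphoserine aminotransferase, the enzyme of the second step of serine synthesis from a glycolytic intermediate. Its Signal was 750 and 608 in BG02257 females, and 2407 and 3876 in Canton S B females. It was 652 and 447 in BG02257 males, and 2026 and 1686 in Canton S B males. The highest BG02257 array thus stayed under the lowest Canton S B array. The mean Signal was 614 ± 126 in BG02257 and 2499 ± 964 in Canton S B (SD, n = 4 each). CG11899 thus fell by 1.98 ± 0.20 (SE) on the log2 scale, or 3.94 times, with a limma adjusted p of 0.0031. The difference was -2.18 in females, where it was also called (limma adjusted p = 0.0358), and -1.78 in males (limma adjusted p = 0.465). Without male 1a it was -2.11 (limma adjusted p = 0.00989).

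The other enzymes of that pathway were measured too. CG6287, a homolog of the dehydrogenase of the first step, had a log2 difference of -0.13 ± 0.17 (limma adjusted p = 0.999). The phosphatase gene astray (aay), which acts at the last step, had Signals of 4968 and 3276 in BG02257 females and 4714 and 1802 in BG02257 males. In Canton S B its Signals were 5553 and 6811 in females, and 4908 and 3943 in males. The arrays of the lines overlapped for aay, whose log2 difference was -0.60 ± 0.25 (limma adjusted p = 0.999). Of 14 tested genes of serine and one-carbon metabolism, 1 was called, as lower, and 2 had a difference above 0, with a list median of -0.15 on the log2 scale. Over all 6778 tested genes, 49.4% had a difference above 0, and 1 was called as higher and 5 as lower when the brightest probe set stood for each gene. Sardh, a sarcosine dehydrogenase, had the highest difference of the list, 1.66 ± 0.68 (limma adjusted p = 0.999), and its Signal ranged from 65 to 498 in BG02257 and from 45.5 to 271 in Canton S B.

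Npc2g, on 3R, belongs to the NPC2 family, small secreted proteins that bind sterols and of which flies have several. Its Signal was 2740 and 3528 in BG02257 females, and 9413 and 9738 in Canton S B females. In males it was 7382 and 6708 in BG02257, and 10909 and 9573 in Canton S B. The BG02257 females were thus the lowest, and the BG02257 males lay between them and the Canton S B arrays. The mean Signal was 5090 ± 2298 in BG02257 and 9908 ± 680 in Canton S B (SD, n = 4 each), with a log2 difference of -1.08 ± 0.11 (SE) and a limma adjusted p of 0.0031. The difference was -1.62 in females (limma adjusted p = 0.00289) and -0.54 in males (limma adjusted p = 0.762). Without male 1a the difference over both sexes was -1.11 (limma adjusted p = 0.00989). The difference between the sexes, -1.08, had an unadjusted limma p of 0.000356 and an adjusted p of 0.996.

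Npc2h, another gene of the NPC2 family, lies next to Npc2g in gene order and had values of the opposite sign. The Signal of its brighter probe set was 4733 and 3770 in BG02257 females, and 1997 and 1381 in Canton S B females. In males it was 11891 and 10082 in BG02257, and 9611 and 4675 in Canton S B. BG02257 exceeded Canton S B within each sex, with a log2 difference of 1.03 ± 0.21 that was not called (limma adjusted p = 0.181). Its second probe set had a difference of 0.43 ± 0.31 (limma adjusted p = 0.999). Transcripts of related genes may share probes, and this was not tested. Npc2a, an NPC2 gene of general sterol transport, had a difference of 0.06 ± 0.11, and Npc1a, its partner at the lysosomal membrane, one of -0.15 ± 0.13 (limma adjusted p = 0.999 each). Of the 6 tested genes of this group, 1 was called and 4 had a difference above 0, with a median of 0.03.

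Chaoptin (chp), on 3R, encodes a photoreceptor surface protein that holds the light-sensing microvilli together. Its Signal was 10052 and 12904 in BG02257 females, and 4730 and 1898 in Canton S B females. In males it was 12574 and 10928 in BG02257, and 3597 and 4504 in Canton S B. All BG02257 arrays lay far above the Canton S B arrays. The mean Signal was 11615 ± 1354 in BG02257 and 3682 ± 1286 in Canton S B (SD, n = 4 each). The line difference was 1.73 ± 0.23 (SE) on the log2 scale, or 3.33-fold, with a limma adjusted p of 0.0251. It was 1.93 in females and 1.54 in males, with no call in either sex alone (limma adjusted p = 0.208 and 0.656). Without male 1a the difference was 1.68 (limma adjusted p = 0.0954).

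The gene stops encodes a SOCS box protein of photoreceptors that keeps up the amount of NorpA, and it lies 4 genes from chp on 3R. For its brightest probe set, 150928_at, the Signal was 1200 and 1194 in BG02257 females, and 2498 and 2681 in Canton S B females. In males this probe set had 1031 and 1677 in BG02257, and 3143 and 2587 in Canton S B. The lines did not overlap. The log2 difference was -1.12 ± 0.16 (limma adjusted p = 0.0297), and -0.94 without male 1a (limma adjusted p = 0.0898). Probe set 152099_at had a mean Signal of 981 ± 202 in BG02257 and 2370 ± 503 in Canton S B (SD, n = 4 each), with a difference of -1.27 ± 0.19 (limma adjusted p = 0.0318), and -1.13 without male 1a (limma adjusted p = 0.107). The third, 150929_at, had 581 to 619 in BG02257 and 771 to 1306 in Canton S B, with a difference of -0.71 ± 0.15 that was not called (limma adjusted p = 0.192). All 3 probe sets of stops therefore had the same sign.

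Most other genes of these groups had small differences. Of 30 tested phototransduction genes, stops was the gene called, 14 had a difference above 0, and the median was -0.01. The light-gated channel gene trp was the 1 gene of the list higher in BG02257 within each sex without overlap. It had a Signal of 12661 to 14026 in BG02257 and of 9379 to 11642 in Canton S B, and a difference of 0.34 ± 0.10 (limma adjusted p = 0.626). Besides stops, 3 genes of the list were lower in BG02257 within each sex without overlap. The scaffold gene inaD had 5059 to 6152 in BG02257 and 6500 to 9169 in Canton S B, with a difference of -0.41 ± 0.13 (limma adjusted p = 0.693). The lipid phosphatase gene laza had a difference of -0.38 ± 0.13 (limma adjusted p = 0.772). The scavenger receptor gene santa-maria had one of -0.21 ± 0.11 (limma adjusted p = 0.999). Over all tested genes, 2.27% were higher and 2.45% lower in BG02257 within each sex without overlap. The list was not tested against these shares. Of 24 tested genes of photoreceptor membranes and eye structure, chp was the gene called, 12 had a difference above 0, and the median was 0.01. The summed Signal of the phototransduction list was 208415 to 231192 in BG02257 and 210550 to 242352 in Canton S B, so the ranges overlapped.

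Sepia (se), on 3L, encodes a glutathione transferase of the omega class that makes a precursor of the red drosopterin pigments. Its Signal was 812 and 834 in BG02257 females, and 2483 and 1613 in Canton S B females. In males it was 1194 and 1039 in BG02257, and 2085 and 2691 in Canton S B. Every BG02257 array was below every Canton S B array. The mean Signal was 970 ± 181 in BG02257 and 2218 ± 475 in Canton S B (SD, n = 4 each), with a log2 difference of -1.18 ± 0.16 (SE), 2.27 times lower, and a limma adjusted p of 0.0251. Without male 1a the difference was -1.23 (limma adjusted p = 0.0898).

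Of 24 tested genes of eye pigment synthesis and transport, se was the gene called, 8 had a difference above 0, and the median was -0.11. Purple (pr), which makes the pterin that is the substrate of the enzyme encoded by se, had a difference of -0.33 ± 0.18, and Punch (Pu), the first enzyme of pterin synthesis, one of -0.22 ± 0.20 (limma adjusted p = 0.999 each). The pigment transporter gene scarlet (st) had a difference of -0.28 ± 0.21 (limma adjusted p = 0.999). No probe set was paired with w, the marker gene of the transposon, which is not analysed here.

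ScsbetaG, on 3L, encodes the GDP-forming beta subunit of succinyl-CoA synthetase, an enzyme of the citric acid cycle. Its Signal was 361 and 331 in BG02257 females, and 743 and 656 in Canton S B females. In males it was 382 and 403 in BG02257, and 711 and 710 in Canton S B. The spread within each line was small, with a mean of 369 ± 30.5 in BG02257 and 705 ± 35.9 in Canton S B (SD, n = 4 each). The log2 difference was -0.94 ± 0.13 (SE), 1.91 times lower, with a limma adjusted p of 0.0265, and -0.92 without male 1a (limma adjusted p = 0.0954). Among the other subunits of the enzyme, the ADP-forming beta subunit gene ScsbetaA had a difference of 0.07 ± 0.10 and the alpha subunit gene Scsalpha1 one of 0.02 ± 0.11 (limma adjusted p = 0.999 each). Of 18 tested genes of the cycle, 12 had a difference above 0, and the median was 0.02.

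Tequila (teq), on 3L, encodes a large trypsin-like serine protease known for a role in long-term memory in flies. Its probe sets went opposite ways. The called probe set, 153070_at, had Signals of 1933 and 1944 in BG02257 females, and 3356 and 3308 in Canton S B females. In males it had 2303 and 2182 in BG02257, and 3525 and 3576 in Canton S B. The mean was 2090 ± 182 in BG02257 and 3441 ± 129 in Canton S B (SD, n = 4 each), with a log2 difference of -0.72 ± 0.10 (SE) and a limma adjusted p of 0.0265. Without male 1a it was -0.74 (limma adjusted p = 0.0923).

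Probe set 141527_at of teq had Signals of 1781 and 1848 in BG02257 females and 2227 and 2788 in BG02257 males. In Canton S B it had 684 and 1205 in females, and 1025 and 1356 in males. All BG02257 arrays were the higher ones, with a difference of 1.04 ± 0.19 that was not called (limma adjusted p = 0.0993). Probe set 148446_at also had higher values in BG02257, with 844 to 1742 in BG02257 and 193 to 703 in Canton S B, and a difference of 1.44 ± 0.36 (limma adjusted p = 0.397). Of 538 genes with several tested probe sets, 3 had more than 1 probe set at an unadjusted p under 0.01, and teq was the gene among them whose probe sets disagreed in sign. The annotation used here does not say which transcripts each probe set detects.

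Females and males gave few calls when tested apart. In females, CG11899 and Npc2g were called (0.0239% of the tested probe sets), and 303 probe sets had an unadjusted p under 0.05. In males limma called 0 probe sets (0%), with 361 at an unadjusted p under 0.05 and a smallest adjusted p of 0.465, while a separate model of line, sex and interaction for every probe set, on linear Signal, called 1. The test of the line difference in females minus that in males called 0 probe sets (0%), with 304 at an unadjusted p under 0.05 and a smallest adjusted p of 0.996, and 0 in the separate models on linear Signal. In each of these limma tests the share of probe sets at an unadjusted p under 0.05 was below 0.05, the share that arises on average with no difference. All 8 called probe sets had the same sign in both sexes, which an average over both sexes favours.

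**Figure D2:**
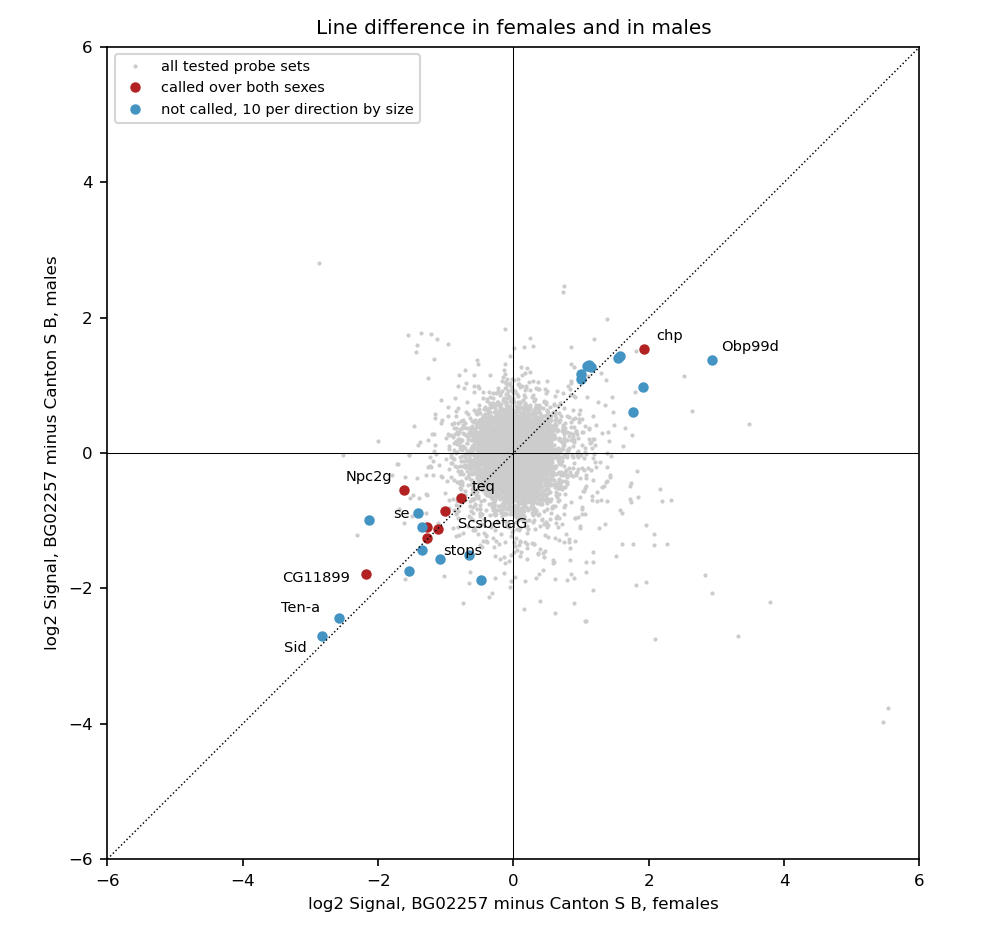
Log2 difference in Signal, BG02257 minus Canton S B, in females (horizontal axis) and males (vertical axis) for all 8380 tested probe sets, with the called ones in red and 20 large differences that were not called in blue. The called probe sets lie near the diagonal apart from Npc2g, at -1.62 in females and -0.54 in males.

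Arrays of BG02257 lay above those of Canton S B in both sexes for 188 probe sets (2.24%) and below them for 208 (2.48%). This description needs no model and is not a test. With so few arrays per group, many probe sets can separate in this way without a line difference. The counts are therefore not counts of line differences. Among those with an unadjusted limma p under 0.01 that were not called, the 10 largest differences in each direction all kept their sign under every setting tried. Their choice by arrays that do not overlap favours this, and all settings use the same arrays, so it is no separate support. Without male 1a their differences were between 0.94 and 1.76 in the higher 10 and between -2.43 and -0.83 in the lower 10, and Obp99d moved to 1.76, Sid to -2.29, siz to -1.19 and cwo to -0.83.

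Among the higher values that were not called were those of genes of smell and immunity. Obp99d, an odorant-binding protein gene, had a Signal of 173 and 148 in BG02257 females, and 27.1 and 16.2 in Canton S B females. In males it had 494 and 162 in BG02257, and 113 and 105 in Canton S B. Its log2 difference was 2.16 ± 0.40 (limma adjusted p = 0.105). Of 24 tested odorant-binding protein genes, 19 had a difference above 0, with a median of 0.12, and of 0.00 without male 1a. Ir76a, an ionotropic receptor gene, had 276 to 376 in BG02257 and 54.9 to 220 in Canton S B, with a difference of 1.48 ± 0.36 (limma adjusted p = 0.397). Of 15 tested odorant, gustatory and ionotropic receptor genes, 8 had a difference above 0, with a median of 0.10. Or59b of that list was lower within each sex without overlap, with a difference of -0.87 ± 0.27 (limma adjusted p = 0.693).

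Def encodes defensin, a peptide active against Gram-positive bacteria, and Drs encodes the antifungal peptide drosomycin. Def had a Signal of 586 and 655 in BG02257 females, and 136 and 316 in Canton S B females. In males it had 655 and 566 in BG02257, and 158 and 320 in Canton S B. The BG02257 arrays were close to each other and all higher, with a difference of 1.51 ± 0.28 (limma adjusted p = 0.105). Drs had 2801 to 9076 in BG02257 and 1650 to 4039 in Canton S B, with a difference of 1.20 ± 0.25 (limma adjusted p = 0.192). Over the 16 tested antimicrobial peptide and Tot genes, 8 had a difference above 0 and the median was 0.01.

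CG3566 came nearest to the threshold from outside, with 1924 to 2365 in BG02257 and 671 to 1371 in Canton S B. Its difference was 1.21 ± 0.19 (limma adjusted p = 0.0543), beside 0.0318 for the last probe set inside, of stops. The next were CG8004 at -0.84, Culd at 0.87 and CG14567 at -1.22, each with a limma adjusted p of 0.0717. The remaining genes of the higher 10 were CG15642, CG12655, CG34227 and CG6610, with differences of 1.05 to 1.19, and teq again through its probe set 148446_at.

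The lower values that were not called included Sid, a stress-induced nuclease gene, with 13.5 to 79.6 in BG02257 and 73.6 to 582 in Canton S B. Its difference was -2.77 ± 0.69 (limma adjusted p = 0.42). Ten-a encodes a teneurin, a cell surface protein that matches synaptic partners. One of its 6 tested probe sets, 144930_at, had Signals of 25.7 and 126 in BG02257 females, and 458 and 254 in Canton S B females. In males this probe set had 52.3 and 65.7 in BG02257, and 252 and 405 in Canton S B. The difference was -2.51 ± 0.43 (limma adjusted p = 0.0761), while the other 5 probe sets had differences of -0.68 to -0.14.

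The dimmer probe set of cwo, a transcriptional repressor of the circadian clock, had 47 to 230 in BG02257 and 167 to 460 in Canton S B, with a difference of -1.17 ± 0.35 (limma adjusted p = 0.626). The brighter probe set of cwo had a mean of 827 ± 57.2 in BG02257 and 827 ± 144 in Canton S B (SD, n = 4 each), with a difference of 0.01 ± 0.13 (limma adjusted p = 0.999). Of 19 tested clock genes, 9 had a difference above 0. The dimmest of 3 tested probe sets of siz, which encodes an exchange factor for Arf GTPases, had a difference of -1.64 ± 0.53 (limma adjusted p = 0.719). The brightest, with 2644 to 3177 in BG02257 and 1700 to 3184 in Canton S B, had a difference of 0.24 ± 0.20, and the other one had -0.79 ± 0.36 (limma adjusted p = 0.999 each). CG10479, CG7607, CG33143, CG14567, CG9109 and CG13046 completed the lower 10, with differences of -1.57 to -1.09.

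The line BG02514 was set beside BG02257, as both carry a P{GT1} insertion. Both comparisons with Canton S B share the same Canton S B arrays. Against Canton S B, BG02514 had 15 called probe sets (0.179%). The gene chp had a Signal of 10769 to 12842 in BG02514, a difference of 1.79 from Canton S B (limma adjusted p = 0.0148), beside 1.73 in BG02257. The gene se had 711 to 947 in BG02514, a difference of -1.43 (limma adjusted p = 0.00356), beside -1.18 in BG02257. For teq, BG02514 differed from Canton S B by -1.20 with 153070_at, by 1.90 with 141527_at and by 2.61 with 148446_at (limma adjusted p = 0.00105, 0.00178 and 0.0175), beside -0.72, 1.04 and 1.44 in BG02257.

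For CG11899 and Npc2g, BG02514 had values nearer to those of Canton S B. CG11899 had a Signal of 1398 to 2355 in BG02514, a difference of -0.35 from Canton S B (limma adjusted p = 0.732). Npc2g had 10396 to 11665 in BG02514, a difference of 0.18 (limma adjusted p = 0.759). Its neighbour Npc2h (142414_at) differed from Canton S B by 0.93 in BG02514 (limma adjusted p = 0.171), beside 1.03 in BG02257. The higher Npc2h values were thus not particular to BG02257, and the difference between the insertion lines was 0.10 (limma adjusted p = 0.916). For ScsbetaG and the called probe sets of stops, the mean of BG02514 lay between those of the other lines. Probe set 150928_at of stops had 1618 to 2125 in BG02514, with differences from Canton S B of -0.55 and, with 152099_at, of -0.52 (limma adjusted p = 0.328 and 0.473). ScsbetaG had 394 to 566 in BG02514, a difference of -0.56 from Canton S B (limma adjusted p = 0.176). Between BG02257 and BG02514 the difference was -0.56 for stops (150928_at) and -0.37 for ScsbetaG (limma adjusted p = 0.261 and 0.369). With the uncalled probe set of stops, 150929_at, BG02514 was near Canton S B, with a difference of -0.03 (limma adjusted p = 0.976). By that probe set BG02257 differed from BG02514 by -0.68 (limma adjusted p = 0.121).

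The genes of smell and immunity with high values in BG02257 had positive differences in BG02514 too, none of them called. BG02514 differed from Canton S B by 2.04 for Obp99d, 1.13 for Def, 1.17 for Drs and 1.06 for Ir76a (limma adjusted p = 0.0996, 0.199, 0.14 and 0.438).

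BG02257 was also tested against BG02514 in the same model, a comparison added after the values were seen. It called 28 probe sets (0.334%), 13 higher and 15 lower in BG02257. The same BG02257 arrays served here and in the comparison with Canton S B. For genes chosen there, the p-values below are therefore not independent support. CG11899 fell by 1.63 and Npc2g by 1.26 on the log2 scale in BG02257 relative to BG02514 (limma adjusted p = 0.00719 and 0.00114). Of the genes above that were not called against Canton S B, CG3566 was higher, by 1.13, and CG14567, Ten-a (144930_at) and CG7607 were lower, with differences of -1.20, -2.49 and -2.94 (limma adjusted p = 0.0397, 0.0398, 0.0424 and 0.00171). CG7607 had 174 to 279 in BG02257, 1412 to 2025 in BG02514 and 370 to 1070 in Canton S B, so the insertion lines lay on either side of Canton S B. For chp and se the test between the insertion lines made no call, with differences of -0.06 and 0.25 (limma adjusted p = 0.961 and 0.644).

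The 8 called probe sets all lay on chromosome 3. Arm 3R held 5 of 1862 tested probe sets and 3L held 3 of 1419. In gene order, stops and chp were 4 genes apart, Npc2g and Npc2h 1, Npc2g and stops 49, and se and teq 89. The share of probe sets whose arrays did not overlap in either sex was 2.89% higher and 3.38% lower in BG02257 on 3L. On 3R these shares were 2.36% and 2.42%, on X 2.44% and 2.82%, on 2R 1.75% and 2.29%, and on 2L 1.21% and 1.90%.

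**Figure D3:**
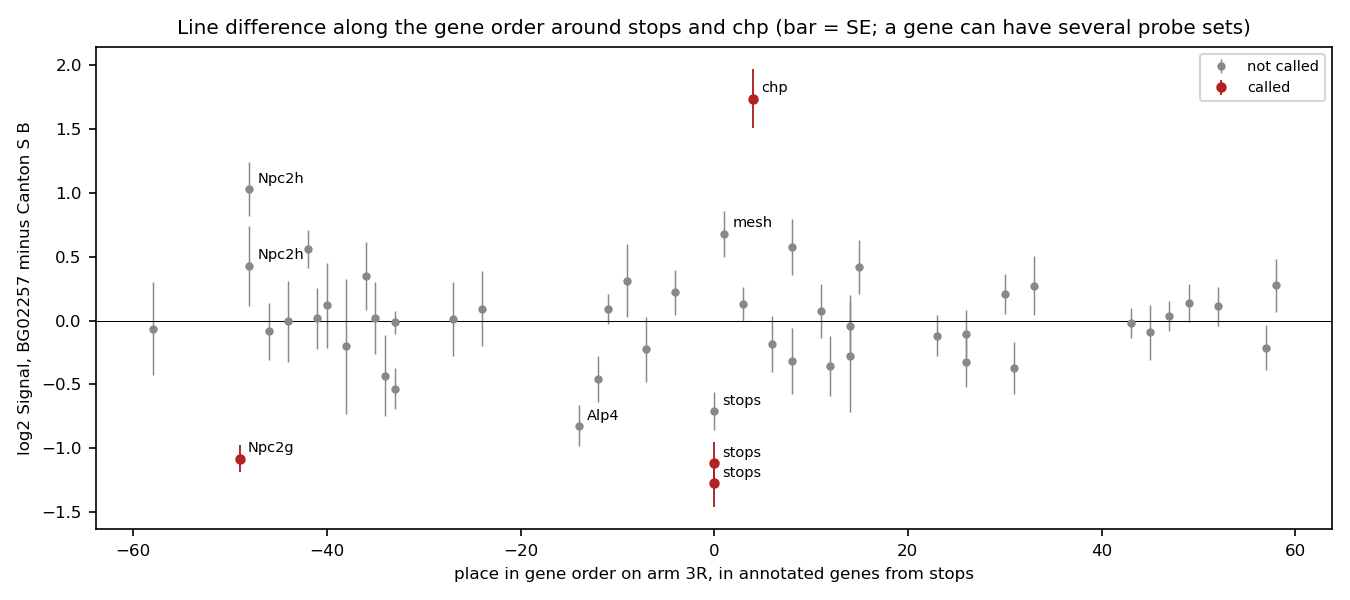
Log2 difference in Signal, BG02257 minus Canton S B, with its SE, for probe sets on 3R plotted by place in gene order counted from stops, which stands at 0. The called values of Npc2g, stops and chp stand among genes whose differences were small, and Npc2h next to Npc2g and mesh next to stops had positive values that were not called.

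The measured genes nearest to the called ones mostly had small differences. Some of these neighbours were not close, and jdp, the farthest, lay 32 genes from Npc2g. The 10 measured neighbours of CG11899 had log2 differences of -0.30 to 0.47, those of ScsbetaG -0.34 to 0.34, those of teq -0.33 to 0.24, and those of se -0.36 to 0.67. The neighbours of Npc2g reached 1.03, at Npc2h, and the neighbours of stops and chp include each other. The gene mesh, which encodes a septate junction protein of the gut and lies 1 gene from stops, had a difference of 0.68 (limma adjusted p = 0.483).

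At the region named in the title of the series, Gr5a had a low Signal and was not tested, since its mean of 95.1 over the 12 arrays was under the limit for testing, 128.2. Its Signal was 56.7 and 87.4 in BG02257 females, and 34.9 and 36.2 in Canton S B females. In males it was 159 and 289 in BG02257, and 138 and 43.6 in Canton S B. The 10 measured neighbours of Gr5a on the X chromosome had differences of -0.47 to 0.15, and 0 of them were called by limma, with 0 at an unadjusted p under 0.05. Tre1 was not analysed here, since the annotation pairs it with no probe set. Of 13 tested genes of G protein signalling and germ cell migration, 6 had a difference above 0, and the median was -0.03.

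Of 36 gene lists, 6 held 1 called member each and 30 held 0 by limma. These 30 lists had 671 tested genes, of which 30 had an unadjusted p under 0.05, again a share below 0.05. The list of 31 cytosolic ribosomal protein genes had 2 with a difference above 0 and a median of -0.07, made of -0.26 in females and 0.12 in males. Its median was -0.02 after quantile normalization, so its values moved with the scaling. RpL28 was the lowest, with 9448 to 10615 in BG02257 and 10660 to 14925 in Canton S B, and a difference of -0.41 ± 0.10 (limma adjusted p = 0.313).

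**Figure D4:**
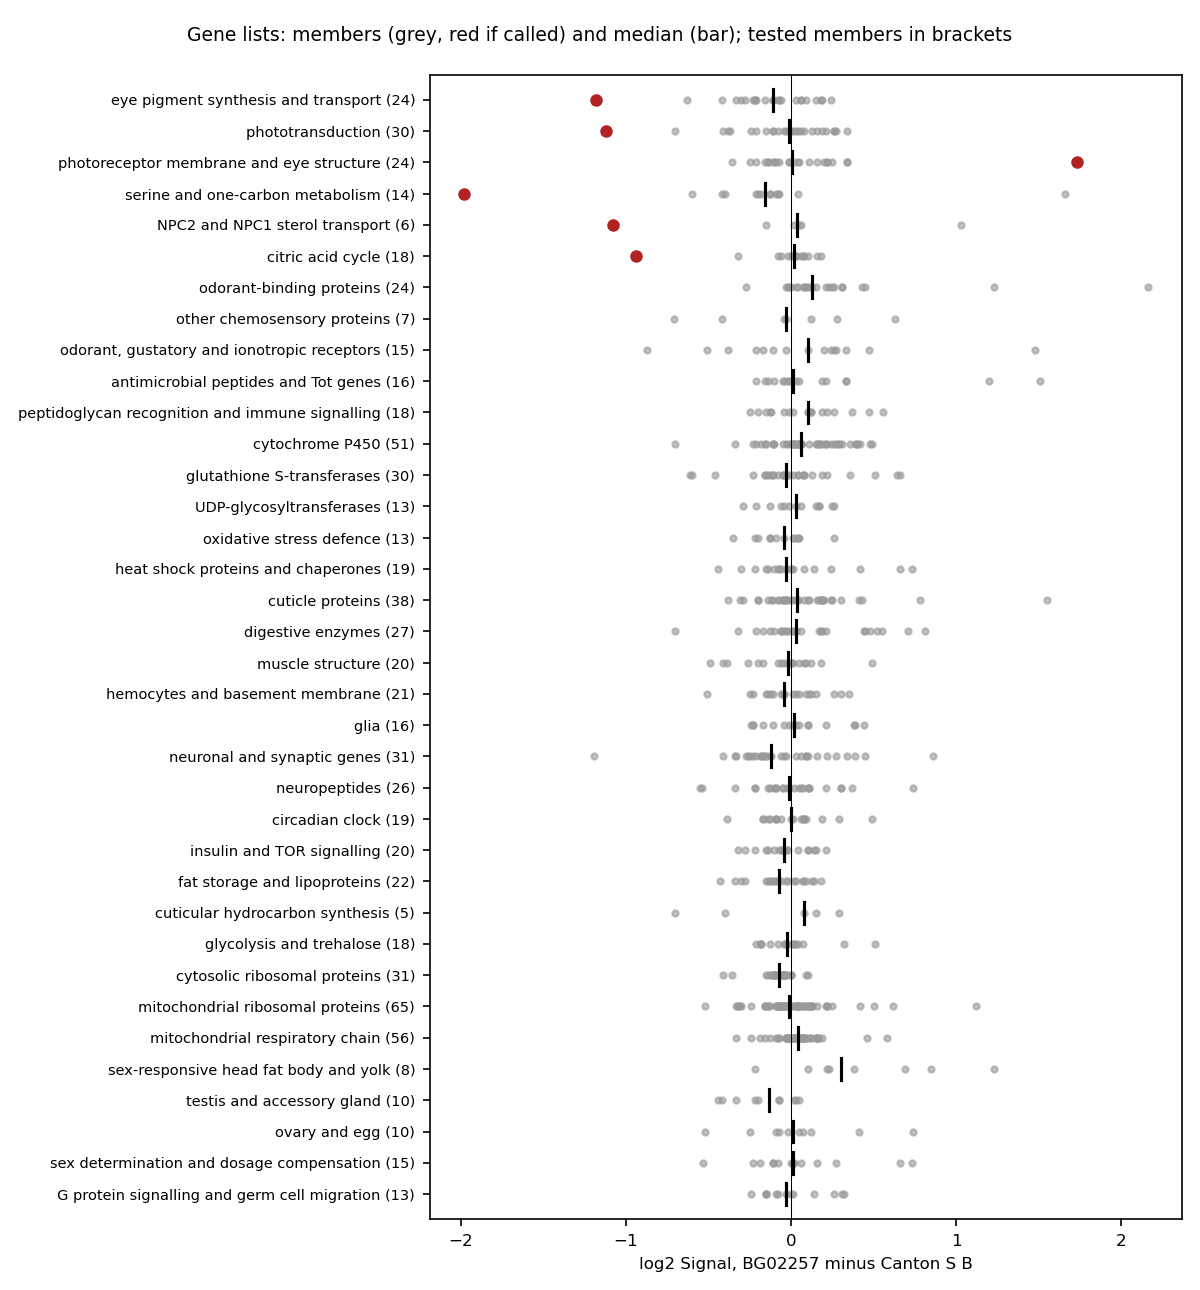
Log2 difference in Signal, BG02257 minus Canton S B, of the tested members of 36 gene lists (points, red where called) with each list's median (bar) and number of tested members in brackets. Medians lie near 0, between -0.15 and 0.31, and the 6 called members lie away from the rest of their lists.

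Metabolic and detoxifying gene groups had medians close to 0. Of 51 tested cytochrome P450 genes, 36 had a difference above 0, with a median of 0.06. Of 30 glutathione S-transferase genes, 13 did, with a median of -0.03, and of 56 genes of the mitochondrial respiratory chain, 38 did, with a median of 0.04. Among 31 neuronal and synaptic genes the median was -0.12, and 0.07 without male 1a. Its lowest member, brp, an active zone protein gene, had 9.8 on male 1a, against 127 to 209 on the other 5 male arrays.

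Marker lists of other tissues had no called members. Muscle structure genes had 8 of 20 above 0 and a median of -0.02, and their summed Signal was 61756 to 111963 in BG02257 and 82374 to 111699 in Canton S B. Hemocyte and basement membrane genes had 10 of 21 above 0, with summed Signals of 65551 to 81062 in BG02257 and 61437 to 86646 in Canton S B. For glia, 9 of 16 genes were above 0, with summed Signals of 32864 to 40658 in BG02257 and 34246 to 42077 in Canton S B. For digestive enzymes, 16 of 27 were above 0, with sums of 13743 to 18542 in BG02257 and 13237 to 19602 in Canton S B. The ranges of the 2 lines overlapped for each of these 4 lists. Among all 36 lists, that of fat storage and lipoprotein genes was the one whose sums did not overlap. Its summed Signals were 69790 to 78931 in BG02257 and 79028 to 86694 in Canton S B. The gap between these ranges was small, and lists were not tested as sets. Of the 22 tested genes of that list, 8 had a difference above 0, and the median was -0.07. The fatty acid binding protein gene fabp had 13100 to 18280 in BG02257 and 17546 to 20565 in Canton S B, with a difference of -0.34 ± 0.11 (limma adjusted p = 0.693). The part of cell composition in the called differences was not tested.

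The number of calls moved with the arrays and the model. Leaving out each of the 12 arrays in turn gave 2 to 24 called probe sets, and CG11899 and Npc2g were called in all 12 of these fits, while each of the other 6 probe sets was called in 1 to 3 of them. With the 8 arrays of the 2 lines alone, CG11899 was the 1 probe set called. All 8 kept their sign under every setting, which is favoured by arrays that do not overlap between the lines.

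**Figure D5:**
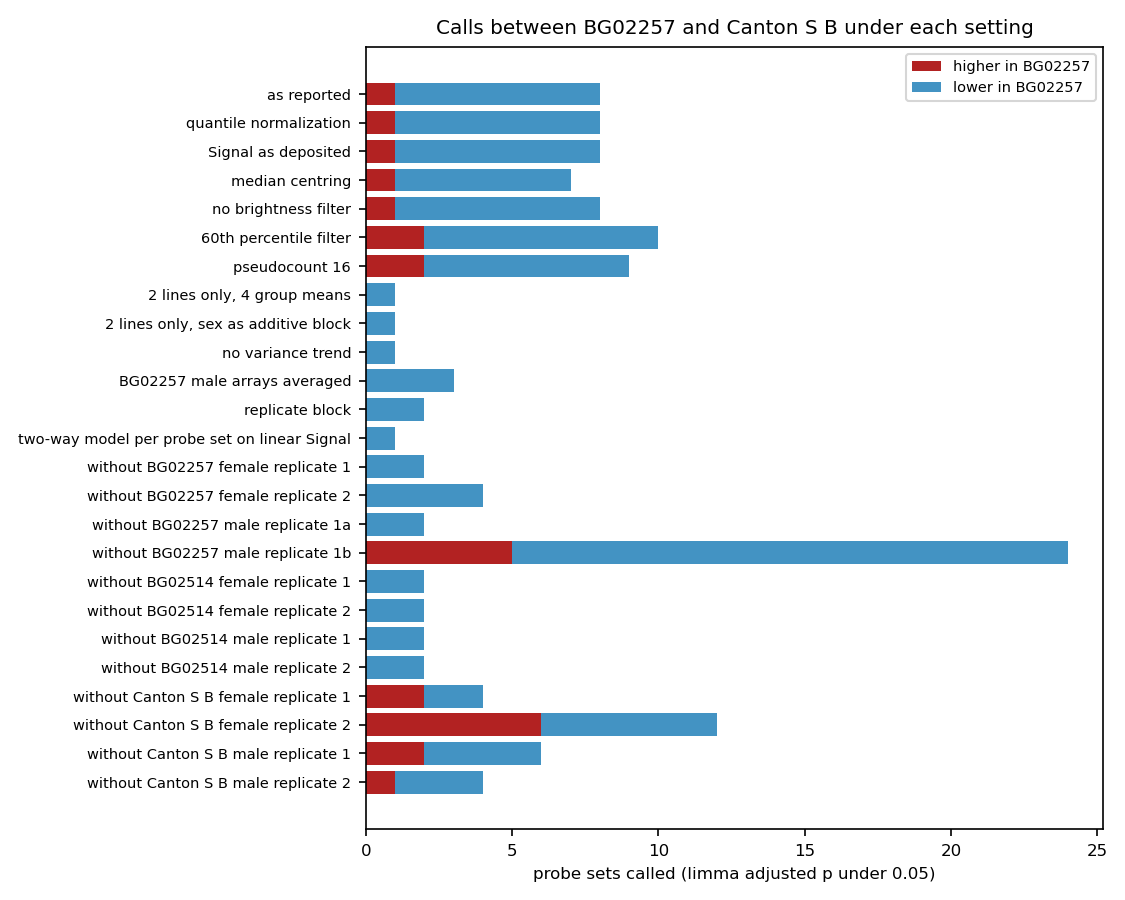
Number of probe sets called between BG02257 and Canton S B under each setting, split into those higher (red) and lower (blue) in BG02257. The count was 8 as reported and ranged from 1 to 24, with the highest count without BG02257 male 1b.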

How the data were processed

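The values deposited by the authors are intensities, given as Signal on a linear scale, which per the labels is the expression metric of the Affymetrix Microarray Suite. GCOS is also named in the submitters' processing notes, and versions and settings were not known here. With 2% of each tail removed, the mean of the deposited intensities was 500.1 on every one of the 12 arrays, which were therefore scaled before deposit.

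From 14010 probe sets 44 controls were dropped. Of the 13966 that remained, the platform annotation gave 12442 a single gene symbol, 327 several symbols and 1197 no symbol. RefSeq records of assembly Release 6 plus ISO1 MT were found for 12393 and served for names, chromosome arms and gene order. Each array was rescaled to a trimmed mean of 500 and Signal was put on the log2 scale without a pseudocount. Testing was limited to 8380 probe sets at or above the 40th percentile of mean Signal (128.2), 919 of them without a single gene name. The model, a mean for each of 6 groups over all 12 arrays, was fitted in limma (version 3.58.1, R 4.3.3) by lmFit, contrasts.fit and eBayes using an intensity trend for the variance, which left 6 residual degrees of freedom beside 5.09 from the prior. All tests were two-sided with Benjamini-Hochberg adjustment at 0.05. The p-values come from this fit. A line difference averages both sexes with equal weight. The fit was tested on simulated data.

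Named are all called genes, the 10 largest differences per direction among uncalled probe sets with an unadjusted p under 0.01 and no overlap of the lines in either sex, called members and ends of gene lists, neighbours in gene order, w and the yolk protein genes. CG8004 and Culd, the genes on male 1a, and other list members were chosen after their values were seen. The members, lists and tests were chosen with earlier results of these data known. Replicates are separate pools of heads, per the labels' design text, save for the doubt over the BG02257 males, and the number of arrays limits the precision. Alternatives were other scalings, filters, pseudocount, samples, variance priors, a replicate block and leaving out each array. Where several probe sets report a gene in a list, the brightest stood for it.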

Additional observations from a re-analysis of the deposited data

Results flagged for a closer look

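Npc2g is given here because its line difference differed between the sexes before correction for multiple tests. The difference, BG02257 minus Canton S B, was -1.62 in females and -0.54 in males on the log2 scale, and the first minus the second was -1.08. In the limma interaction test this had an unadjusted p of 0.000356 and an adjusted p of 0.996 over 8380 probe sets, so it did not pass the correction. Both BG02257 female arrays (2740 and 3528) lay below both BG02257 male arrays (7382 and 6708), whereas the Canton S B females (9413 and 9738) overlapped the Canton S B males (10909 and 9573).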

How the results depend on the processing

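Each result was set beside its value under each alternative setting, and the numbers here count such pairs. For results that are not counts, 818 pairs kept their direction and side of the threshold, which includes uncalled results that stayed uncalled. In 117 pairs a call was lost, in 16 one was gained, 1 moved by more than the spread, and 0 changed sign under a call. For the counts of calls, 70 pairs were the same and 49 moved. The count of 8 calls between the lines was 7 to 10 under the other scalings, filters and pseudocount. It was 1 with the 8 arrays of the 2 lines, either as 4 group means or with sex as an additive block, 1 without a variance trend, 3 with the BG02257 male arrays averaged, and 1 (teq) with the separate models on linear Signal. Leaving out each array gave 2 to 24 calls over both sexes (24 without BG02257 male 1b, 12 without Canton S B female 2), 0 to 7 in females, 0 to 122 in males and 0 to 18 for the difference between the sexes, the last 2 highest without BG02257 male 1b. The 2 calls in females were 1 after median centring, 0 with the 2 lines only, 0 without a variance trend and 1 with the linear-Signal models, and the 0 calls in males were 1 with the linear-Signal models. The 28 calls between BG02257 and BG02514 were 9 without a variance trend, 11 with the male arrays averaged, 3 with the linear-Signal models, and 2 to 90 leaving out each array, highest without BG02257 male 1b. The cause was not tested.

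With the replicate number as a block, calls were 2 over both sexes (CG11899 and Npc2g), 1 in females and 16 between the insertion lines. The BG02257 males, both numbered 1, were left out of a check of pairing by number. Over 10 pairs of the other groups, deviations of same-numbered arrays correlated at -0.236 to 0.269, with 1 over 0.1. Whether same-numbered arrays share a batch was not tested.

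With 2 arrays per sex and line, and with both BG02257 male arrays labelled replicate 1, the labels do not show that the males of this line were sampled more than once. Dim probe sets, Gr5a among them, were not tested.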

Other observations

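A group of transcripts was nearly missing from 2 of the 8 arrays, 1 of each line. On BG02257 male 1b and on Canton S B female 2, 8 probe sets had a Signal more than 4 times below that of any of the other 6 arrays, a limit chosen after the values were seen. Muc68D, a mucin gene, had 10.4 on BG02257 male 1b and 1653 on male 1a, with 3203 and 2482 in BG02257 females. In Canton S B it had 2.5 on female 2, 1491 on female 1, and 1134 and 2798 in males. CG34324 had 303 on BG02257 male 1b and 10234 to 19149 on the other BG02257 arrays, and 435 on Canton S B female 2 and 7757 to 15710 on the other Canton S B arrays. Ag5r, CG14125, CG4783 and CG3906 and 2 probe sets without a single gene name had the same pattern. Since the arrays concerned are 1 of each line and of opposite sex, these genes had positive differences in females and negative ones in males (5.53 and -3.76 for Muc68D), with no limma call. On the 4 BG02514 arrays Muc68D had 4.1 to 24.0, whereas the other 7 probe sets were not low there, with 7318 to 17481 for CG34324 and 1536 to 4028 for CG3906.

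BG02257 male 1a lacked a set of transcripts that every other male array had. Shaw, a potassium channel gene, had a Signal of 13.3 on this array, against 316 to 500 on the other 5 male arrays. The immunoglobulin superfamily gene tutl had 23.3, against 299 to 705, and IA-2, a gene of dense core vesicles, had 70.1, against 791 to 1568. The gene mam, which encodes a Notch coactivator, had 14.4, against 172 to 253. These genes were chosen after their values were seen, and their part in the line difference was not tested.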
